A study of Mus musculus with 20 samples.

Results

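Cilia are built and maintained by intraflagellar transport, and 34 mouse genes of that machinery were followed here in the trachea before and 3 days after epithelial injury. They were chosen by name, by a rule that holds no measured value: 5 genes of the core and 5 of the peripheral part of the IFT-B complex, 5 of the IFT-A complex, 7 BBSome subunits, 2 chaperonin-like BBS proteins, 3 small GTPases with the membrane adaptor Tulp3, 2 subunits of the retrograde motor dynein-2 and 4 of the anterograde kinesin-2 motors. All 34 were on the arrays, among 27962 gene names, with 75 of the 41174 probes. Of these, 3 were found under an older symbol (Ift46, Bbs9 and Bbs12). Probes entered the test when 10 or more of the 20 arrays showed them well above background, which held for 58 probes of 32 members. Ttc21b, an IFT-A subunit, and Kif17, a kinesin-2 motor, had no tested probe and are not described further. The filter did not select on 1 group, since the probe counted for each of the 32 genes exceeded background clearly in 3 or more arrays of every group, and for 29 of them in all 20.

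Intraflagellar transport carries cargo along the axoneme of a cilium. Trains of IFT-B, moved by kinesin-2, travel to the tip, and trains that also hold IFT-A return to the base by dynein-2, while the BBSome, recruited to membranes by the GTPase Arl6, links membrane proteins to the trains. In the airway the machinery is required to build the many motile cilia of ciliated cells, but nearly every other cell type also makes a primary cilium with the same proteins, so these genes are less restricted to ciliated cells than the genes of the motile axoneme.

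The 20 samples were whole tracheas of 4-month-old mice in 4 groups of 5. Wild-type mice were C57/Bl6 from an in-house colony, and Myd88KO mice lacked the toll-like receptor adaptor Myd88 in all cells and came from a colony of their own, bred from knockout parents, so that genotype and colony cannot be told apart. Uninjured mice of each genotype received no injury, and injured mice of each genotype received 2% polidocanol, a detergent that strips the airway epithelium, into the trachea 3 days before collection. Each RNA was hybridised with 1 dye to 1 whole-genome array, and the signal of a probe is given as log2 of its background-subtracted intensity minus the 75th percentile of the array, so that 0 is the level of that percentile. In whole tissue, fewer ciliated cells and less RNA per cell cannot be told apart.

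Each of the 5 slides carried 1 array of every group, all with the same replicate number, and slides 2, 3 and 4 were scanned on a first day and slides 1 and 5 on a second. Between 57.5% and 67.8% of spots were well above background, and 5 arrays per group limit the precision. Myd88 itself had a log2 signal of 1.94 to 2.28 in uninjured wild-type and 1.60 to 2.04 in uninjured Myd88KO arrays (difference -0.21, SE 0.14, adjusted p = 1), and was lower in injured Myd88KO arrays by 0.77 (1.54 to 2.09 against 2.36 to 2.80, adjusted p = 0.00824). Whether its probe covers the deleted sequence is not given in the sources used here, so these levels may not check the genotype. The array of injured Myd88KO replicate 5 stood apart: the secretory gene Scgb3a2 was at 9.10 there, within the 8.59 to 9.43 of uninjured Myd88KO arrays and above the 3.07 to 7.94 of the other injured ones. The cell cycle kinase Cdk1 was at -3.13 in it, within the -3.47 to -2.62 of uninjured Myd88KO arrays and below the 0.19 to 0.66 of the other injured ones. Member medians and counts for injured Myd88KO tracheas, and the changes of Wdr19, Traf3ip1 and Kif3a, are therefore also given without it. The marker lists and most other single-gene changes are given with it only, apart from Scgb1a1, which had no value in that array. Uninjured wild-type replicate 3 stood apart as well, with a summed signal, in units of the 75th percentile, of 33 for 5 proliferation genes (4.9 to 8.17 in the other uninjured wild-type arrays) and of 243 for 4 basal cell markers (59.6 to 72.2), and with the lowest member and ciliated marker medians of its group (-0.29 and -0.64 from the group mean).

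RFX and forkhead factors are known regulators of ciliary genes, so the windows before the start sites of the members were read from RefSeq (GRCm38.p6). A window of 300 bases, 250 before the start to 50 after it, was given for 30 of the 34 genes (31 windows; none for Ift80, Ift81, Ift122 and Dync2li1). The short RFX motif GTTGCC, on either strand, was found in 13 of the 31 member windows (41.9%) and in 12.5% of all 32817 windows. The paired RFX motif, GTTNCC and GGNAAC separated by 2 bases and thus able to overlap the short motif, was found in 1 member window, that of Bbs7, and in 0.451% of all windows. Other spacings were not searched, and the Ift57 window holds GTTGCC and GGTAAC separated by 1 base. The forkhead motif TGTTTAC was found in 0 member windows and 3.65% of all. These matches describe the letters only. The 250 bases before the start are shown for the 3 members with the lowest adjusted p after wild-type injury that had a window and for the holder of the paired motif, with GTTGCC and the paired motif in capitals. They lie at chr1:91494418-91494667, plus strand (Traf3ip1), chr5:65199446-65199695, plus strand (Wdr19), chr16:49699044-49699293, plus strand (Ift57) and chr3:36613390-36613639, minus strand (Bbs7), and each is written 5′ to 3′ along its gene. The capitals begin 79 bases before the start in Traf3ip1, 87 and 60 before it in Ift57 and 121 before it in Bbs7, and Wdr19 has none.
Traf3ip1: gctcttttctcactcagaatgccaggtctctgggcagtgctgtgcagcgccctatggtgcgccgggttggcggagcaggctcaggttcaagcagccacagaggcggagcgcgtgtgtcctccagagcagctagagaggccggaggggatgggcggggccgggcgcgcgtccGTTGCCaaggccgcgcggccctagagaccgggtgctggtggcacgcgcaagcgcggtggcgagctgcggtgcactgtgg
Wdr19: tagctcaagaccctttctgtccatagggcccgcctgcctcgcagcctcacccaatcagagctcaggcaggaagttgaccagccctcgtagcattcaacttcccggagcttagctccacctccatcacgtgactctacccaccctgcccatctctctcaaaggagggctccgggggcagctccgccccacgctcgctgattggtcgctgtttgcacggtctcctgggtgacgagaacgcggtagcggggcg
Ift57: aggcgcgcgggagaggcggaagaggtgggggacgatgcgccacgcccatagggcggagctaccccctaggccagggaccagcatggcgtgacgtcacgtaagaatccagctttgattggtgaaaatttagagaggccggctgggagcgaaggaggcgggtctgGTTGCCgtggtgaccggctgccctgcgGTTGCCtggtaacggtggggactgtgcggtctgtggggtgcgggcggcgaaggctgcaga
Bbs7: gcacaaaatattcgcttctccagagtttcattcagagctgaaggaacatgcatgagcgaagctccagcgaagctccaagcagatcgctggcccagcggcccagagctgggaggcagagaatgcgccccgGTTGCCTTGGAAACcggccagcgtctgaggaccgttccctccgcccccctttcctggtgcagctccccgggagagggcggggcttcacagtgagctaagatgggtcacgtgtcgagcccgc

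In wild-type tracheas Traf3ip1, a peripheral IFT-B gene, fell 3.61-fold after injury, and most other intraflagellar transport genes had means below the uninjured level without passing the adjusted test. Kinesin-2 genes stayed within 0.13 of 0. Of the 32 tested members 26 had a change below 0 and 6 above, and the median change was -0.54 on the log2 scale against -0.005 over all 17870 genes tested. At an adjusted p under 0.01, 1 member was lower (3.12%, against 2.34% of all genes) and 0 were higher (3.64% of all genes), 5.98% of all genes being called in either direction. At an adjusted p under 0.05, 5 members were lower (15.6%, against 5.43% of all genes) and 0 higher (8.43%). At an unadjusted p under 0.05, 15 were lower (46.9%, against 12.5% of all genes) and 0 higher. In 6 members, 18.8% of those tested, all injured arrays lay below all uninjured ones (5.05% of all genes), and in 0 above them (8.58%). The tests are those of limma over all 20 arrays with Benjamini-Hochberg adjustment. By role, the median changes were -1.03 for dynein-2, -0.92 for the IFT-B core, -0.61 for peripheral IFT-B, -0.58 for BBSome subunits, -0.44 for the GTPases and Tulp3, -0.39 for IFT-A, -0.10 for the chaperonins and 0.02 for kinesin-2.

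**Figure D1:**
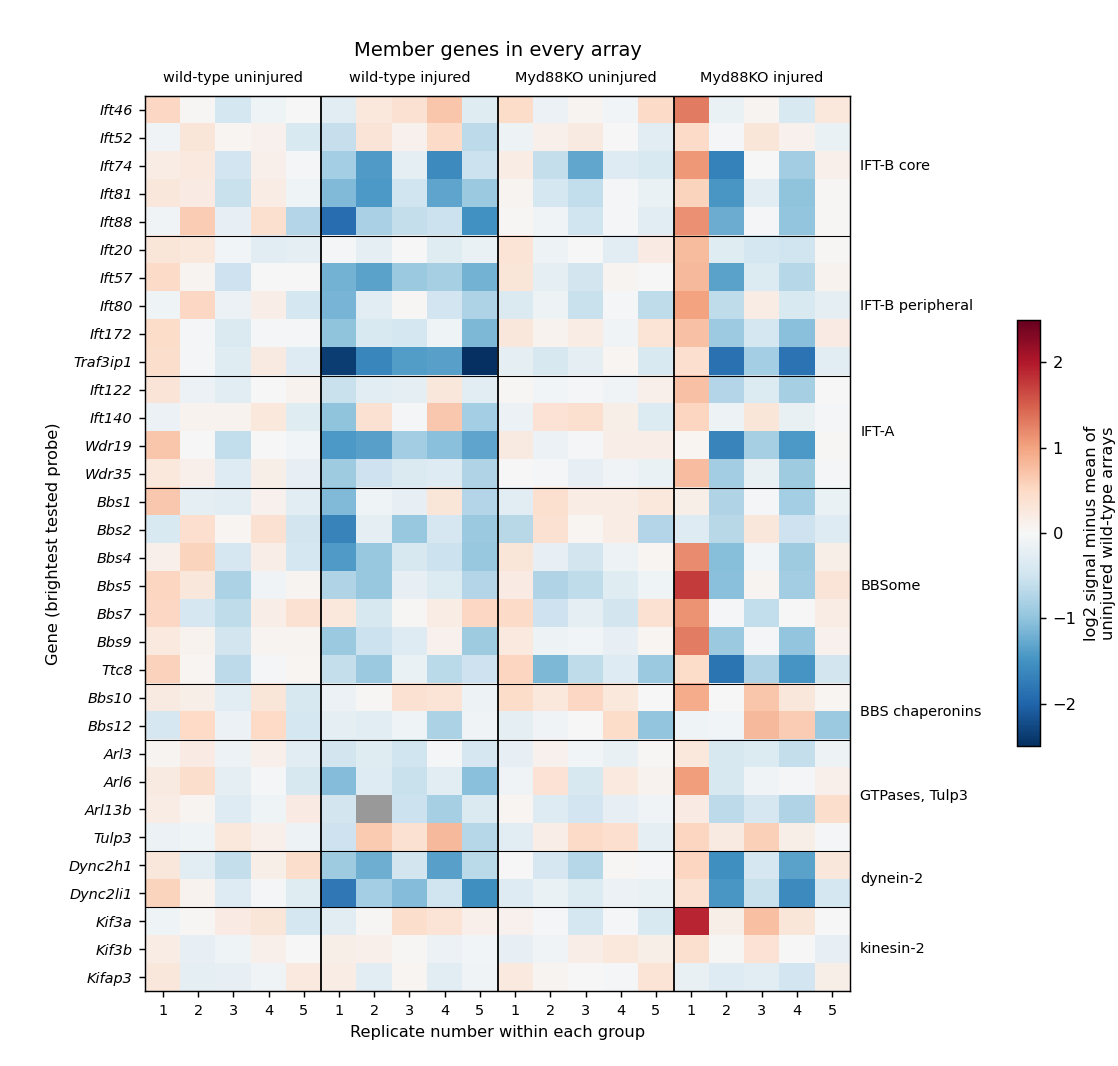
Log2 signal of the 32 tested members in each of the 20 arrays (columns, replicates 1 to 5 of each group), minus the mean of the 5 uninjured wild-type arrays; rows are ordered by role, and the grey cell is an outlier spot that was left out. Traf3ip1 is lower in all 5 injured wild-type arrays, kinesin-2 rows stay near 0 there, and injured Myd88KO replicate 1 is higher than replicates 2 and 4 in every row but that of Bbs12.

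Among the peripheral IFT-B genes, Traf3ip1, which encodes IFT54 and binds tubulin, was the member called after injury. Its log2 signal was 1.06, 0.59, 0.31, 0.85 and 0.3 in uninjured wild-type replicates 1 to 5 and -1.76, -1, -0.78, -0.73 and -1.89 in injured ones. The groups did not overlap, and the mean fell by 1.85 (SE 0.36, 95% interval -2.60 to -1.11, adjusted p = 0.00247), which is 3.61-fold lower. The fall was present on each slide and ranged from -2.81 on slide 1 to -1.09 on slide 3. The other tested probe of Traf3ip1 gave -1.77 (SE 0.43, adjusted p = 0.0106), also without overlap of the groups. Ift57, which encodes a coiled-coil subunit, was at 2.82, 2.4, 1.82, 2.32 and 2.32 in uninjured and 1.16, 1, 1.41, 1.51 and 1.16 in injured wild-type arrays. These groups did not overlap either, and the change was -1.09 (SE 0.29, adjusted p = 0.0178), with -0.95 and -1.02 for its other tested probes. Ift172, the large subunit that takes part in turnaround at the ciliary tip, was at 4.63, 4.12, 3.81, 4.15 and 4.15 in uninjured and 3.16, 3.8, 3.74, 4.06 and 3.05 in injured wild-type arrays. Its groups overlapped, the change of -0.61 did not pass the adjusted test (SE 0.28, adjusted p = 0.172), and its 3 other tested probes ranged from -0.71 to -0.05. Ift20, which also works at the Golgi to send membrane proteins to the cilium, was at 4.33, 4.3, 3.97, 3.77 and 3.78 and then at 3.98, 3.79, 4.03, 3.73 and 3.86. The groups overlapped, with a change of -0.15 (95% interval -0.59 to 0.28). Ift80, required for the elongation of cilia, changed by -0.53 (adjusted p = 0.229).

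In the IFT-B core, Ift74, Ift81 and Ift88 had means below the uninjured level and Ift46 and Ift52 were near 0. Ift81, which with Ift74 forms the tubulin-binding module, was at 0.8, 0.72, -0.03, 0.71 and 0.42 in uninjured and -0.57, -0.91, 0.02, -0.8 and -0.4 in injured wild-type arrays. Only uninjured replicate 3 reached into the range of the injured arrays, and the change was -1.05 (SE 0.30, adjusted p = 0.0252). Its other tested probe fell by 1.25 (SE 0.28, adjusted p = 0.00613), with no overlap between the groups, and passed the threshold of 0.01 that the brighter probe missed. Ift74 changed by -0.92 (adjusted p = 0.141) and Ift88, the gene disrupted in the classical Tg737 model of ciliary disease, by -1.07 (adjusted p = 0.0668). Ift46, which carries outer dynein arms, was at 4.3, 3.82, 3.35, 3.69 and 3.8 in uninjured and 3.5, 4.06, 4.18, 4.49 and 3.48 in injured wild-type arrays. The injured range contained the uninjured mean, and the change was 0.15 (95% interval -0.43 to 0.73), whereas a second probe gave -0.47 (adjusted p = 0.143) without overlap. Ift52 was at 1.11, 1.51, 1.26, 1.31 and 0.82 in uninjured and 0.62, 1.53, 1.31, 1.68 and 0.55 in injured arrays, with a change of -0.06 (95% interval -0.50 to 0.38) and overlapping groups.

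In the IFT-A complex, Wdr19, a core subunit also known as IFT144, was at 3.2, 2.49, 1.89, 2.49 and 2.43 in uninjured and 1.07, 1.14, 1.63, 1.46 and 1.18 in injured wild-type arrays. Every injured value was below every uninjured one, and the change was -1.20 (SE 0.29, 95% interval -1.81 to -0.59, adjusted p = 0.0103), just above the threshold. Of the 4 Wdr19 probes on the arrays only 1 was tested, so no second probe could be compared. Wdr35, or IFT121, was also separated (-0.57, SE 0.24, adjusted p = 0.129). Ift122 was at 3.22, 2.75, 2.64, 2.89 and 2.98 in uninjured and 2.33, 2.64, 2.66, 3.17 and 2.62 in injured arrays, which overlapped, and changed by -0.21 (95% interval -0.69 to 0.27). Ift140 changed by -0.17 (95% interval -0.74 to 0.40), and a second probe gave 0.35 (adjusted p = 0.407).

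The dynein-2 subunits were both lower on average. Dync2li1, the light intermediate chain, was at 1.7, 1.22, 0.81, 1.1 and 0.84 in uninjured and -0.66, 0.29, 0.05, 0.64 and -0.39 in injured wild-type arrays. The groups did not overlap, and the change was -1.15 (SE 0.31, adjusted p = 0.0195). Dync2h1, the heavy chain that generates movement, was at 1.11, 0.56, 0.24, 0.97 and 1.28 and then at -0.05, -0.39, 0.37, -0.52 and 0.16. Only injured replicate 3 reached the uninjured range, for a change of -0.92 (SE 0.34, adjusted p = 0.0831). Its 6 tested probes disagreed, from -1.49 (adjusted p = 0.0168) to 0.27 (adjusted p = 0.432).

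The kinesin-2 subunits were near 0. Kifap3, the accessory subunit, was at 1.66, 1.14, 1.18, 1.29 and 1.63 in uninjured and 1.57, 1.1, 1.43, 1.1 and 1.29 in injured wild-type arrays, and Kif3a, a motor subunit, at -1.2, -1.07, -0.9, -0.79 and -1.53 and -1.38, -1.06, -0.65, -0.75 and -0.97. Both pairs of groups overlapped and no member of this role passed the test. The change was -0.09 for Kifap3 (95% interval -0.40 to 0.23), 0.13 for Kif3a (-0.44 to 0.71) and 0.02 for Kif3b (-0.28 to 0.31). These intervals exclude a fall of the size seen for Traf3ip1 in all 3 genes. Other probes gave 0.13 and -0.27 for Kifap3 and -0.03 for Kif3b.

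No BBSome gene passed the adjusted test. Bbs9, a scaffold subunit, was at 1.61, 1.46, 0.91, 1.43 and 1.43 in uninjured and 0.45, 0.84, 1.05, 1.48 and 0.48 in injured wild-type arrays, with a change of -0.51 (SE 0.32, adjusted p = 0.334). Bbs5, which binds phosphoinositides, was at 1.16, 0.91, -0.16, 0.54 and 0.69 and then at -0.12, -0.31, 0.42, 0.28 and -0.11, a change of -0.60 (SE 0.39, adjusted p = 0.349). Both pairs of groups overlapped. The other subunits ran from -0.85 for Bbs4 (adjusted p = 0.101) and -0.84 for Bbs2 (adjusted p = 0.0597) through -0.58 for Ttc8 and -0.38 for Bbs1 to 0.12 for Bbs7, the holder of the paired RFX motif. Bbs7 was the dimmest tested member in uninjured wild-type arrays (mean log2 signal -4.43), which limits what its change can show. Of the chaperonin-like proteins that assemble the BBSome, Bbs10 was at -1.8, -1.88, -2.3, -1.73 and -2.42 in uninjured and -2.18, -2, -1.65, -1.69 and -2.16 in injured arrays, and Bbs12 at -3.43, -2.52, -3.16, -2.51 and -3.45 and -3.26, -3.27, -3.13, -3.81 and -3.1. They overlapped, with changes of 0.09 (95% interval -0.32 to 0.50) and -0.30 (-0.95 to 0.35).

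Among the GTPases, Arl13b, which acts on Arl3 in the ciliary membrane, was at 1.78, 1.67, 1.28, 1.49 and 1.8 in uninjured wild-type arrays and at 1.15, 1.07, 0.78 and 1.24 in injured replicates 1, 3, 4 and 5, the spot of replicate 2 being an outlier. All injured values lay below all uninjured ones, and the change was -0.54 (SE 0.22, adjusted p = 0.119) for this probe, -0.73 (adjusted p = 0.0235) for another and -0.70 (SE 0.16, adjusted p = 0.00686) for the remaining one, which was called. Arl3, which releases lipid-bound cargo in the cilium, was at 2.5, 2.64, 2.31, 2.56 and 2.14 and then at 1.98, 2.12, 1.94, 2.41 and 2.01. Its groups overlapped only through uninjured replicates 3 and 5 and injured replicate 4, and the change was -0.34 (SE 0.16, adjusted p = 0.175). Arl6, the BBSome recruiter, changed by -0.66 (adjusted p = 0.09), and Tulp3, which ties membrane receptors to IFT-A, by 0.12 (adjusted p = 0.803). Counting a gene by any of its probes, Traf3ip1, Ift81 and Arl13b were the 3 members called lower after wild-type injury (2.61% of all genes by the same rule).

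**Figure D2:**
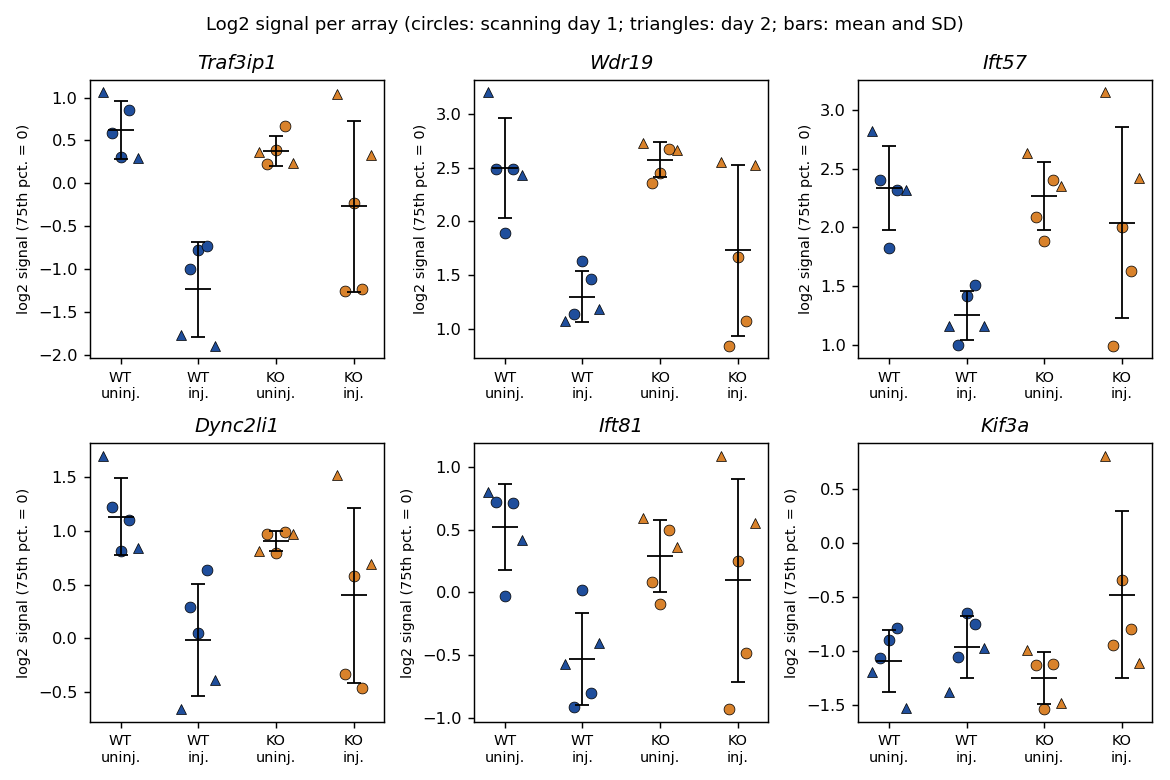
Log2 signal per array of Traf3ip1, Wdr19, Ift57, Dync2li1, Ift81 and Kif3a in the 4 groups of 5 (WT, wild-type; KO, Myd88KO; circles, first scanning day; triangles, second; bars, mean and SD). Traf3ip1 is below 0 in the 5 injured wild-type arrays and above 0 in the 5 uninjured ones, while injured Myd88KO arrays span from -1.25 to 1.04.

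The size of the fall varied between injured wild-type arrays, and with it the markers of ciliated cells. Relative to the uninjured wild-type mean, the median over the 32 members was -0.87, -0.33, -0.24, -0.31 and -0.73 in injured wild-type replicates 1 to 5. The median over 11 tested markers of ciliated cells was -3.43, -1.21, -0.89, -1.31 and -2.81 in the same arrays. Both lists were thus lowest in replicates 1 and 5, the arrays of the second scanning day. All 11 markers were below 0 after wild-type injury (median -1.52), and 3 were called: Sntn (-6.05, adjusted p = 0.000103), Hydin (-3.44, adjusted p = 0.00205) and Dnah5 (-3.94, adjusted p = 0.00319). Their summed signal, in units of the 75th percentile, was 26 to 65.7 in uninjured and 3.74 to 65.3 in injured wild-type arrays. Such a sum of linear signals is carried by the brightest genes of its list. In injured replicate 4, Foxj1, Lrrc23 and Tekt1 were at 4.74, 4.45 and 3.79, and Sntn and Hydin at -6.76 and -2.61. Dnaic2, the remaining marker, was not well above background on enough arrays to be tested. Foxj1, counted among the 11 ciliated cell markers, was at 0.17 and 0.60 in injured replicates 1 and 5. It was at 3.68 to 4.74 in replicates 2, 3 and 4, against 2.39 to 3.82 in uninjured wild-type arrays. Ccno, a regulator of centriole amplification, was at 1.12 and 1.52 in replicates 1 and 5 and at 4.36 to 5.54 in the others, against 0.14 to 1.20 uninjured. Of the 4 tested ciliogenesis regulators on a list of their own (Ccno, Myb, Rfx2 and Trp73), 2 were above 0 and 2 below. Their median was 0.59 and 0 were called. Trp73 was at -0.45, -1.57 and -0.26 in injured replicates 2, 3 and 4, against -1.16 to -0.63 uninjured. The part of ciliated cell number in the fall of the members was not tested. Other cell type lists moved after wild-type injury too. The 4 secretory genes were all below 0 (median -3.19), with Scgb1a1 (-7.91, adjusted p = 1.05e-05) and Scgb3a2 (-5.77, adjusted p = 0.000394) called lower, and their summed signal was 1150 to 2150 in uninjured and 635 to 762 in injured arrays. The 5 proliferation genes were all above 0 (median 1.92), with Ccnb1 (2.77, adjusted p = 0.00235) and Cdk1 (2.54, adjusted p = 0.00964) called higher, and a sum of 4.9 to 33 before and 13.5 to 24.4 after injury. Of 6 myeloid genes 5 were above 0 (median 2.67), with Cd68 called higher (3.27, adjusted p = 0.000907). The sum, most of it from Lyz2, was 299 to 532 before and 337 to 639 after injury. The 4 basal cell markers had a median of 0.37 and 0 were called. The part of these cells in the fall of the members was not tested. Without uninjured wild-type replicate 3, the member median after wild-type injury was -0.62, and Traf3ip1 (-1.93, adjusted p = 0.00394) and Wdr19 (-1.35, adjusted p = 0.00669) were called. The share of all genes called in either direction was then 5.34%.

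Within scanning days, the wild-type members had a median change of -0.36 on the first day (3 slides, 21 of 32 below 0) and of -0.80 on the second (2 slides, 30 of 32 below 0). Traf3ip1 was called within each day, at -1.42 (adjusted p = 0.00883) and -2.50 (adjusted p = 0.00617). Of all genes, 3.58% were called on the first day and 2.91% on the second. Signs were opposite between days in 10 members. Ift46, which was near 0 over all slides, was 0.62 higher on the first day's slides and -0.56 on the second's, and Tulp3 was at 0.53 and -0.48. Ift140 (0.20 and -0.71) and Bbs1 (0.13 and -1.13) did the same. In 11 of the 32 members the injured array was below the uninjured one on every slide that measured both. The share was 12.8% among all genes with values on all slides, and these 2 groups were not taken as paired by slide. With slide as a block in the fit over all 20 arrays, Traf3ip1 (adjusted p = 0.00549), Wdr19 (adjusted p = 0.00943) and Ift57 (adjusted p = 0.00989) were called, 3 members, with 6.7% of all genes called in either direction. Kif3a and Kifap3 differed little between days, at 0.10 and 0.19 and at 0 and -0.22.

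**Figure D3:**
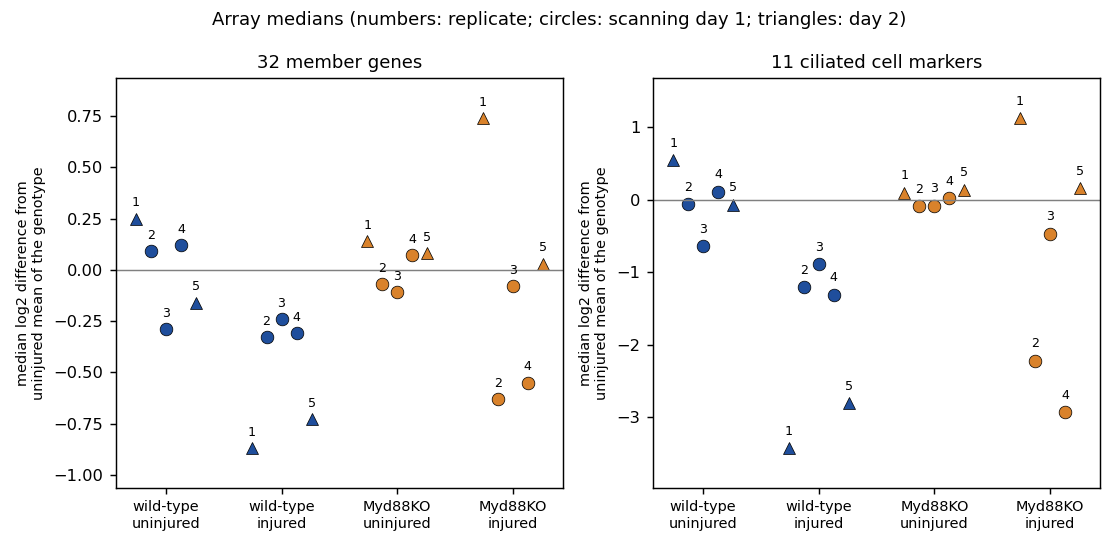
Median log2 difference from the uninjured mean of the same genotype, per array, over the 32 tested members (left) and 11 ciliated cell markers (right; the y axes differ in scale); numbers are replicates, circles the first and triangles the second scanning day. Injured Myd88KO replicate 1 is above 0 in both lists (0.74 and 1.13), and replicates 2 and 4 are below (-0.63 and -0.55 for the members).

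In Myd88KO tracheas, no member was called after injury. Of the 32 members 19 were below 0 and 13 above, and the median change was -0.07 against -0.09 over all genes. At an adjusted p under 0.01, 0 were lower (0.297% of all genes) and 0 higher (0.151%), with a smallest adjusted p of 0.115 in limma. At an unadjusted p under 0.05, 2 were lower, 6.25% of members against 14% of all genes, and 1 was higher (6.98% of all genes). The injured arrays were spread widely: the member median was 0.74, -0.63, -0.08, -0.55 and 0.03 in replicates 1 to 5, and the ciliated marker median was 1.13, -2.22, -0.47, -2.93 and 0.16. Replicate 1 thus had the highest medians of both lists, replicates 2 and 4 the lowest, and the member median of replicate 5 lay within those of the uninjured arrays, -0.11 to 0.14. Of the 11 ciliated cell markers 10 were below 0 after Myd88KO injury (median -0.83), 0 were called, and their summed signal was 4.36 to 224 in injured and 37.8 to 49.7 in uninjured Myd88KO arrays. Secretory genes had a median of -1.88 (1 of 4 called, Scgb1a1 at -6.24, adjusted p = 0.00069), proliferation genes of 2.12 and myeloid genes of 1.55 (0 called in both). Scgb1a1 had no value in injured replicate 5, where it was left out as an outlier, so its change and call are without that array. The part of any of these lists in the spread of the members was not tested.

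Traf3ip1 was at 0.37, 0.23, 0.39, 0.67 and 0.24 in uninjured and 1.04, -1.25, -0.23, -1.23 and 0.33 in injured Myd88KO arrays. Replicates 2, 3 and 4 were below all uninjured values and replicates 1 and 5 were not, and the mean change was -0.65 (SE 0.36, 95% interval -1.39 to 0.10, adjusted p = 0.33). Wdr19 was at 2.73, 2.36, 2.45, 2.67 and 2.66 uninjured and 2.55, 0.84, 1.67, 1.07 and 2.52 injured, with the same arrays low, and changed by -0.84 (SE 0.29, adjusted p = 0.115). Ift57 was at 2.63, 2.09, 1.88, 2.4 and 2.35 and then at 3.15, 0.99, 2, 1.63 and 2.42, and its wide injured range enclosed the uninjured one (-0.23, SE 0.29, adjusted p = 0.71). Dync2li1, the dynein-2 chain, was at 0.81, 0.97, 0.79, 0.99 and 0.97 uninjured and 1.52, -0.33, 0.58, -0.46 and 0.69 injured, with replicate 1 above and replicates 2, 3, 4 and 5 below all uninjured values (-0.51, adjusted p = 0.388). Ift81 was at 0.59, 0.08, -0.09, 0.5 and 0.36 and then at 1.09, -0.93, 0.25, -0.48 and 0.55, and Ift46 at 4.26, 3.64, 3.87, 3.72 and 4.27 and 5.09, 3.62, 3.87, 3.42 and 4.06. Both injured ranges overlapped the uninjured ones, with changes of -0.19 and 0.06.

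Kif3a was the member with the highest change in this genotype. It was at -0.99, -1.13, -1.54, -1.12 and -1.48 in uninjured and 0.81, -0.95, -0.34, -0.8 and -1.11 in injured Myd88KO arrays. Replicates 1 to 4 were above all uninjured values and replicate 5 was not, and the change was 0.77 (SE 0.28, adjusted p = 0.128). Kifap3, which binds to the same motor, was at 1.63, 1.45, 1.39, 1.33 and 1.73 and then at 1.19, 1.06, 1.09, 0.91 and 1.52, lower in replicates 1 to 4 than in any uninjured array (-0.35, SE 0.15, adjusted p = 0.21). Ift172 was at 4.45, 4.26, 4.35, 4.09 and 4.51 uninjured and 4.9, 3.27, 3.73, 3.13 and 4.37 injured (-0.45), Ift20 at 4.38, 3.91, 4.02, 3.76 and 4.24 and 4.82, 3.72, 3.59, 3.54 and 4.06 (-0.12), and Ift52 at 1.07, 1.33, 1.42, 1.19 and 0.91 and 1.69, 1.18, 1.51, 1.3 and 1.04 (0.16). Ift122 was at 2.92, 2.83, 2.85, 2.81 and 3.03 and 3.62, 2.17, 2.56, 2.06 and 2.91 (-0.23), and Dync2h1 at 0.84, 0.42, 0.11, 0.86 and 0.78 and 1.36, -0.71, 0.41, -0.5 and 1.12 (-0.27). In each of these 5 genes the injured arrays reached both above and below the uninjured mean.

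Among BBS genes and GTPases of this genotype, Bbs9 was at 1.61, 1.25, 1.29, 1.17 and 1.42 uninjured and 2.64, 0.45, 1.31, 0.38 and 1.47 injured (-0.10), and Bbs5 at 0.84, -0.12, 0, 0.33 and 0.52 and 2.37, -0.41, 0.69, -0.25 and 0.95 (0.36). Bbs10 was at -1.57, -1.77, -1.5, -1.77 and -2.03 and -1.09, -2.02, -1.34, -1.75 and -1.98 (0.09), and Bbs12 at -3.24, -3.11, -3.01, -2.56 and -4 and -3.13, -3.08, -2.2, -2.37 and -3.95 (0.24). Arl3 was at 2.22, 2.53, 2.37, 2.25 and 2.46 and 2.69, 2.03, 2.08, 1.84 and 2.3 (-0.18), and Arl13b at 1.66, 1.29, 1.12, 1.4 and 1.52 and 1.8, 0.94, 1.19, 0.86 and 2.05 (-0.03). For all 6 the groups overlapped, and the changes of the remaining members ran from -0.49 for Bbs1 to 0.34 for Ift80.

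Without injured Myd88KO replicate 5, the number of genes called after Myd88KO injury rose over all genes from 53 lower and 27 higher, or 0.448%, to 493 lower and 342 higher, or 4.67%, whereas the member count stayed at 0. The member median was then -0.15, Wdr19 was at -1.04 (adjusted p = 0.0232), Traf3ip1 at -0.80 (adjusted p = 0.173) and Kif3a at 0.93 (adjusted p = 0.0352). Leaving out replicate 1 instead gave a member median of -0.32, with Wdr19 at -1.05 (adjusted p = 0.0497) and 27 of 32 members below 0. The number of all genes below 0 was not computed without replicate 1. The members with an unadjusted p under 0.05 were then 8 lower (25%, against 14.2% of all genes) and 1 higher (6.5%), whereas 3 were lower without replicate 5 (9.38%, against 19.7%) and 1 without each of replicates 2, 3 and 4 (9.69% to 12.6% of all genes). Without replicate 2 or replicate 4 the median was above 0, at 0.07 and 0.09.

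The arrays of the first scanning day alone, 3 against 3 and holding neither replicate 1 nor replicate 5, gave a median change of -0.38 in Myd88KO members, with 27 of 32 below 0. Traf3ip1 (-1.33, adjusted p = 0.00998) and Wdr19 (-1.30, adjusted p = 0.00738) were then called (2 of 32 members, with 4.64% of all genes called in either direction). On the second day, 2 against 2, the median was 0.34, 3 of 32 members were below 0 and 0 were called. Genes of opposite sign on the 2 days numbered 24. In no comparison was the number of all genes below 0 computed within a scanning day. After Myd88KO injury it was 10820 of 17870 over both days.

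**Figure D4:**
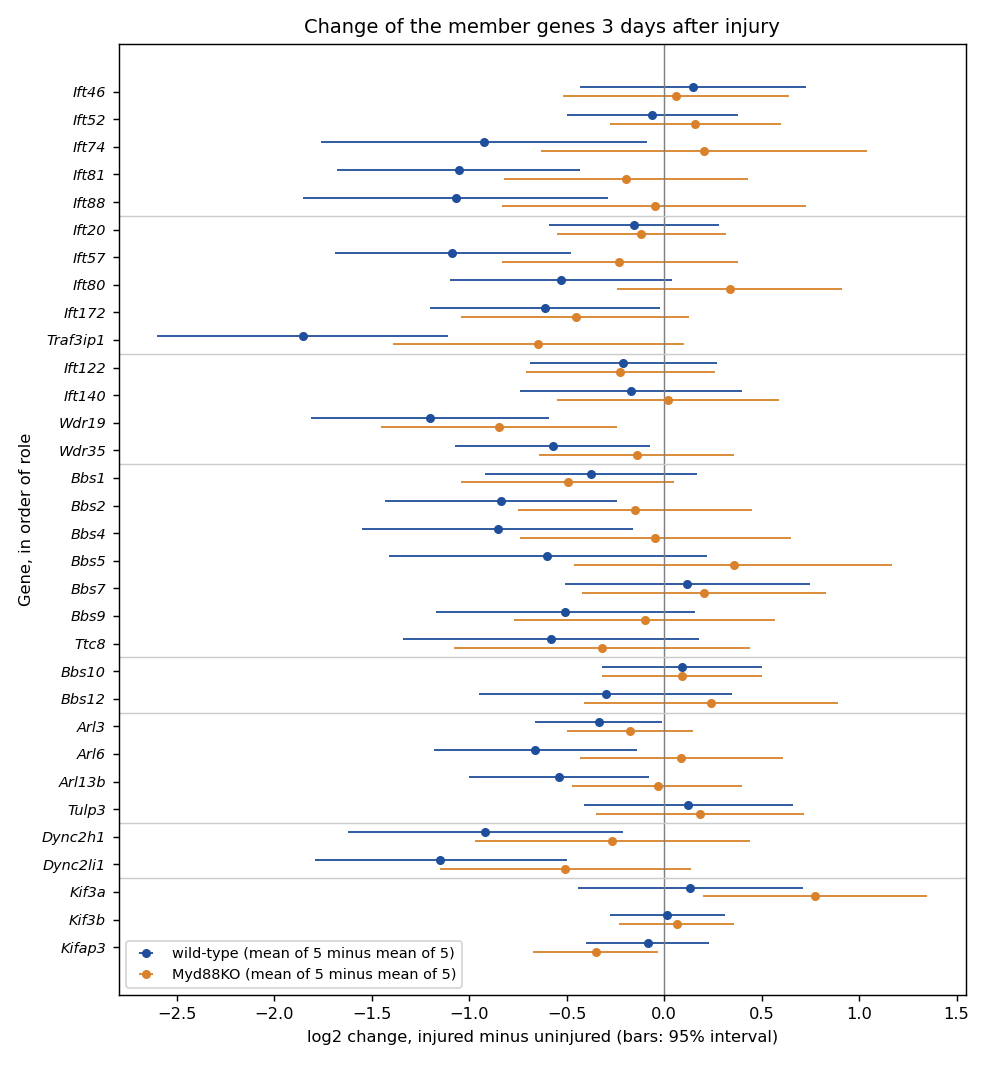
Log2 change (injured minus uninjured, mean of 5 minus mean of 5) of the 32 tested members in wild-type and Myd88KO tracheas, with 95% intervals from limma, ordered by role. Traf3ip1 has the lowest value in wild-type (-1.85), the kinesin-2 genes at the bottom lie near 0 in wild-type, and the intervals of the genotypes overlap in every gene. Such overlap is no test of the difference between the injury responses, which is given separately.

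Between uninjured tracheas of the 2 genotypes no difference in these genes was detected by the adjusted test. The difference, Myd88KO minus wild-type, was below 0 in 21 and above 0 in 11 members, with a median of -0.07 against 0.05 over all genes. It ranged from -0.50 for Ttc8 (95% interval -1.26 to 0.26) to 0.30 for Bbs10 (-0.11 to 0.71). By limma, 0 were called (0.341% of all genes, 0.162% lower and 0.179% higher), in 0 were the groups apart (0.75% lower and 2.02% higher), and 0 had an unadjusted p under 0.05 (1.68% of all genes lower and 4.43% higher). For Traf3ip1 the difference was -0.24 (95% interval -0.99 to 0.50), for Wdr19 0.07 (-0.53 to 0.68) and for Kifap3 0.12 (-0.19 to 0.44). Uninjured arrays of a slide deviated together, and with slide as a block 0 members were called (smallest adjusted p 0.767 by limma) and 0 had an unadjusted p under 0.05 (2.21% of all genes lower and 6.34% higher). By sign alone, 5 of 32 members were below 0 on every slide (4.92% of all genes with values on all slides): Ift74, Ift81, Ift80, Arl13b and Dync2h1. No member was above 0 on every slide (10.3% of those genes).

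After injury, 29 of 32 members had a higher mean in Myd88KO than in wild-type tracheas, with a median of 0.35 against -0.04 over all genes, but 0 were called (0.347% of all genes; smallest adjusted p 0.183). At an unadjusted p under 0.05, 6 were higher (18.8%, against 4.33% of all genes) and 0 lower (8.63%). By limma these were Arl6 (0.79, adjusted p = 0.183), Ift57 (0.79, adjusted p = 0.247), Traf3ip1 (0.96, adjusted p = 0.255), Ift88 (0.85, adjusted p = 0.346), Bbs4 (0.71, adjusted p = 0.384) and Ift81 (0.63, adjusted p = 0.399). This count of higher members rested on single arrays. It was 1 without injured Myd88KO replicate 1 (3.12%, against 3.4% of all genes; median 0.16), 11 without replicate 2 (34.4%, against 7.37%), 3 without replicate 3 (9.38%, against 3.2%), 9 without replicate 4 (28.1%, against 6.02%) and 5 without replicate 5 (15.6%, against 3.12%). In 0 members were the injured groups apart (0.672% of all genes higher and 1.32% lower). Without injured Myd88KO replicate 5 the median was 0.30, with 28 of 32 members above 0, and 0 were called. The direction did not hold within scanning days. On the first day the median difference was -0.14, with 22 of 32 members below 0, and on the second it was 1.14, with 2 of 32 below 0. Traf3ip1 differed by -0.07 on the first day and by 2.51 on the second (adjusted p = 0.00444 within that day), and Dync2h1 was called as well on the second day (1.19, adjusted p = 0.00795), when 5.32% of all genes were. Ccno, the centriole regulator, was at 5.99 in injured Myd88KO replicate 1 and 2.97 in replicate 5, beside 1.12 and 1.52 in the wild-type arrays of the same slides. Over all injured arrays, 0 of the 4 ciliogenesis regulators were called between the genotypes (median 0.28).

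The difference between the injury responses was above 0 in 28 of 32 members, that is a smaller fall or a larger rise in Myd88KO, with a median of 0.42 against -0.11 over all genes, and 0 were called (0% of all genes; smallest adjusted p 0.441). At an unadjusted p under 0.05, 4 members were higher (12.5%, against 3.01% of all genes) and 0 lower (7.78%). These were Traf3ip1 (1.20, SE 0.50, 95% interval 0.15 to 2.26), Ift80 (0.87, SE 0.39), Arl6 (0.75, SE 0.35) and Ift57 (0.86, SE 0.41). The count was 0 without injured Myd88KO replicate 1 (2.45% of all genes), 9 without replicate 2 (28.1%, against 5.4%), 2 without replicate 3 (6.25%, against 2.12%), 10 without replicate 4 (31.2%, against 3.6%) and 1 without replicate 5 (3.12%, against 2.73%). The median was -0.05 on the first scanning day and 1.24 on the second. Without injured Myd88KO replicate 5 it was 0.34, and without replicate 1 it was 0.17. A difference by genotype in the injury response of these genes was therefore not detected by the adjusted test, and the sign of its median differed between scanning days.

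Other genes of the pathway, 26 named as a list, also had means mostly below 0 in injured wild-type tracheas. Of the 24 tested, 21 were below 0 after wild-type injury and 3 above, with a median of -0.44, and 0 were called. At an unadjusted p under 0.05, 6 were lower (25%, against 12.5% of all genes) and 0 higher (15.3%). The lowest was Dynlrb2, a dynein light chain enriched in ciliated cells (-2.21, SE 0.91, adjusted p = 0.122), and Wdr60, a dynein-2 intermediate chain, had the lowest adjusted p (-0.73, SE 0.29, adjusted p = 0.112). In Myd88KO tracheas 15 of 24 were below 0 (median -0.05), and 0 were called.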

How the data were processed

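RNA of 20 whole tracheas was hybridised to 1-colour Agilent arrays. The authors deposited scanner tables from Feature Extraction 9.5.1.1, whose processed signal is an intensity after background subtraction, and a value table of the same arrays, which was used as an alternative. From the deposited intensities, outlier spots and control spots were left out, spots of a probe were averaged, and log2 values were set to the 75th percentile of each array (R 4.3.3, data.table version 1.17.8). A probe was tested if well above background on at least 10 arrays (26063 of 41174 probes). Groups were compared with limma 3.58.1 (lmFit, eBayes) over all 20 arrays, Benjamini-Hochberg adjustment within each comparison and a threshold of 0.01. A gene was counted by its brightest tested probe. The steps were tested on simulated data whose noise was independent between arrays. That test held no slide or scanning day effect and does not cover such effects.

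The members, lists and tests were chosen with earlier results of these data known. By the naming rule, values per array are given for members called in any comparison and for the 2 brightest others of each role, and genes called from the other lists may be named. Ift57, Ift81, the remaining members with single values, Foxj1, Lrrc23, Tekt1, Ccno, Trp73, Lyz2, Scgb3a2, Cdk1, Dynlrb2 and Wdr60 were named after their values were seen. Alternatives covered background correction, normalization, the filter, outlier spots, probe choice, the value table, slide and scanning day as blocks, the samples in the fit, array weights, the threshold, a one-way parametric test and leaving out each array. There were 0 columns of samples outside the study.

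Samples of a replicate number shared a slide. Correlations of their deviations from the group means averaged 0.08 to 0.34 over pairs of groups, against -0.08 to -0.02 for other slides. Deviations cancel out within a group, so the values for other slides follow from those of the same slide and are no separate comparison. Between the uninjured groups every pair was above 0.1 (0.25 to 0.48), so there the numbers were taken to pair the samples by slide, and between other groups the lowest pair was at -0.26 to 0.01, so they were not. The mice are separate biological replicates by the study's account.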

Additional observations from a re-analysis of the deposited data

Results flagged for a closer look

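A single array lay far from the 4 others of its group in 2 of 127 pairs of member and group, by Dixon's test at the 95% level, where chance gives about 1 in 20. Bbs9, the BBSome scaffold gene, was at 0.91 in uninjured wild-type replicate 3, with the other uninjured wild-type arrays at 1.43 to 1.61. The same array had the highest summed signal of proliferation genes (33) and of basal cell markers (243) in its group. Bbs12, a chaperonin-like gene, was at -3.81 in injured wild-type replicate 4, with the other injured wild-type arrays at -3.27 to -3.10.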

How the results depend on the processing

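Traf3ip1 stayed lower after wild-type injury in all 12 alternatives that refit it (-1.94 to -1.62, adjusted p 0.000155 to 0.00681) and with each of the 20 arrays left out (-1.98 to -1.69, adjusted p 0.000818 to 0.00942). The number of members called there was 1 as reported, when 5.98% of all genes were called. It was 2 with quantile normalization, 2 with normexp background correction and 2 among probes well above background on all 20 arrays. It was also 2 with the adjusted one-way parametric test and 8 with its unadjusted p. The share of all genes was not computed in these alternatives, so their counts may not be shifts of the members. Counting any probe it was 3 (2.61% of all genes lower). Scanning day as a block gave 3 and only the groups compared gave 4, for which the share of all genes was not computed. It was 5 with array weights (11% of all genes called) or at an adjusted p under 0.05 (13.9%). With the slide, and so the replicate number, as a block it was 3 (6.7% of all genes called), and the block changed no other count of members. Leaving out 1 array gave 1 to 4: 4 without injured Myd88KO replicate 1 (6.77% of all genes called) and 3 without replicate 2 (6.83%). The count was 2 without replicate 4 (6.52%), replicate 5 (7.9%) or uninjured wild-type replicate 3 (5.34%). Wdr19 passed in 7 of 12 alternatives and Ift57 in 5. After Myd88KO injury, 1 member was called with array weights (Wdr19, -1.17, adjusted p = 0.00272; 8.19% of all genes) and 0 with any array left out. Among the arrays of the first scanning day, 2 members were called after Myd88KO injury (4.64% of all genes), and among those of the second 2 between injured genotypes (5.32%). These scanning day subsets were chosen after seeing the data. The causes of these shifts were not tested. No change of direction was found for Traf3ip1, Wdr19, Ift57, Dync2li1 or Ift81 after wild-type injury under any alternative, and the depth of arrays is limited by signal over background, which kept Ttc21b and Kif17 out.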
